A study of Mus musculus with 18 samples.

Results

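Rxfp1 encodes the relaxin family peptide receptor RXFP1, and its mRNA was measured in the left ventricle of mice with and without overexpression of Gαq. It was selected on its log2 fold change between the genotypes in these same libraries, so that difference is described here without a test. It is 1 gene of 55450 in the count table and 1 of the 16270 with enough reads to be tested. All animals were male FVB/N mice that ate control chow, with or without the SGLT2 inhibitor ertugliflozin, from 4 to 20 weeks of age. Wild type mice on the control diet (WT CD) gave 4 libraries, and wild type mice that received ertugliflozin at 0.5 mg/g chow for 16 weeks (WT ERTU) gave 5. Littermates that overexpress Gαq in the heart gave 5 libraries on the control diet (Gαq CD) and 4 on the same dose of ertugliflozin (Gαq ERTU). The labels call the transgene cardiac-specific, and the promoter that drives it is not given in the sources used here. Libraries are named by the number that their column carries, which runs across the whole series. The columns show the group of a library and not which of the labelled animals it came from.

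RXFP1 is a leucine-rich repeat receptor of the cell membrane that binds the hormone relaxin. It couples to Gs and, in some cells, to Gi and Go proteins, and so acts on adenylyl cyclase and cyclic AMP and on the nitric oxide and cyclic GMP pathway. Relaxin is known in the heart and vessels for vasodilation, for positive chronotropic and inotropic effects on atrial muscle, and for reducing collagen deposition by fibroblasts.

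Total counts per library ran from 15383566 in WT CD to 20908363 in Gαq CD, and the 4 groups overlapped. Gnaq, which encodes Gαq, was 118 ± 70.6 CPM (read pairs scaled to library size) in WT CD (SD, n = 4), 111 ± 75.1 CPM in WT ERTU (SD, n = 5), 7473 ± 3818 CPM in Gαq CD (SD, n = 5) and 3217 ± 1371 CPM in Gαq ERTU (SD, n = 4). The groups therefore followed their genotype labels in every library. Transgene and endogenous Gnaq could not be told apart in the counts. The 6 ventricular cardiomyocyte markers were present in all libraries. The 7 atrial markers summed to between 55.3 and 995 CPM, with Gαq CD library 8 at the top. Among the genes that define atrial muscle, Myl7 and Sln differed widely from library to library within groups. Bmp10 was near the floor, at 0 in 9 libraries and at most 0.367 CPM. In tissue RNA of this kind, fewer cells of a type and less RNA per cell cannot be told apart.

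Rxfp1 (ENSMUSG00000034009) lies on the minus strand of chromosome 3, from 79641611 to 79737880 of build GRCm38. The gene spans 96270 bases, its exons cover 10052 bases over 4 annotated transcripts, and its coding transcript has 18 exons. No other gene annotated in GENCODE M21 shared bases with its exons (0 genes). The authors counted reads on an Ensembl annotation, in which overlaps were not checked. In WT CD, libraries 1, 2, 4 and 5 held 58, 55, 76 and 92 Rxfp1 read pairs, which is 3.34, 3.13, 4.40 and 5.78 CPM. In WT ERTU, libraries 11 to 15 held 52, 36, 97, 88 and 49 read pairs, or 3.12, 2.01, 5.32, 4.61 and 3.16 CPM. The receptor was thus detected in each wild type library, at a low level, and the 2 wild type groups overlapped. In Gαq CD, libraries 6 to 10 held 1831, 2204, 2076, 2389 and 1707 read pairs, which is 113, 107, 95.0, 142 and 80.0 CPM. In Gαq ERTU, libraries 16, 17, 18 and 20 held 984, 2613, 1353 and 1314 read pairs, or 60.0, 145, 76.4 and 60.4 CPM. Library 17 stood above the other 3 of its group and was the highest of all 18 libraries. The lowest Gαq library, at 60.0 CPM, was still 10.4 times the highest wild type library, at 5.78 CPM.

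**Figure D1:**
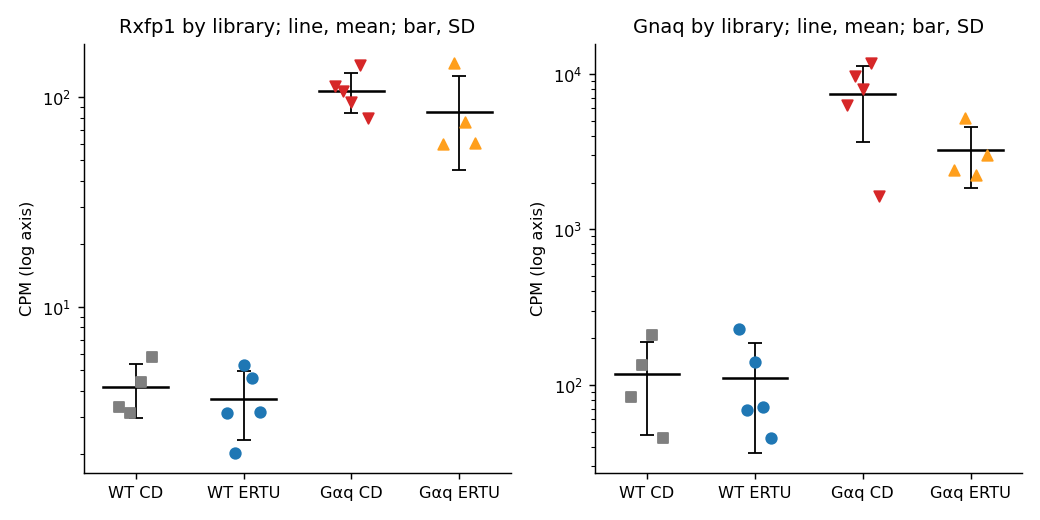
Rxfp1 (left) and Gnaq (right) in CPM on log axes for the 4 groups, with 1 point per library, a line at the group mean and a bar of 1 SD. All 9 Gαq libraries lie above all 9 WT libraries for both genes, and Gnaq spreads more widely within Gαq CD than Rxfp1 does.

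From low to high, the group means of Rxfp1 were 3.64 ± 1.318 CPM in WT ERTU (SD, n = 5), 4.16 ± 1.21 CPM in WT CD (SD, n = 4), 85.4 ± 40.4 CPM in Gαq ERTU (SD, n = 4) and 107 ± 23.2 CPM in Gαq CD (SD, n = 5). The only step in this order with no overlap between libraries was that from WT CD to Gαq ERTU. The mean was 25.8-fold higher in Gαq than in WT on CD and 23.4-fold higher on ERTU. In the fit across all genes the log2 fold change by genotype, with diet in the model, was 4.62 ± 0.21 (SE), or 24.5-fold. It was 4.69 ± 0.32 on CD and 4.54 ± 0.30 on ERTU (SE). By size, the log2 fold change by genotype ranked 5 among 16270 genes, after Gm26984 (5.46 ± 0.59), Gnaq (5.42 ± 0.45), Gm23903 (5.39 ± 0.48) and Nppa (5.03 ± 0.26), the gene of atrial natriuretic peptide. Just below it was Gm13054 (4.38 ± 0.21). Across all genes, 19.6% passed an adjusted p of 0.05 by genotype, 8.1% on CD and 8.17% on ERTU.

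The rise moved Rxfp1 from the lower part of the expressed genes to the upper part. Its mean CPM exceeded that of 28.5% of the tested genes in WT CD and 27.1% in WT ERTU, against 90.3% in Gαq CD and 87.2% in Gαq ERTU. Rxfp1 has long exons, and per kilobase of exon it reached 0.414 and 0.362 CPM in WT CD and WT ERTU and 10.7 and 8.50 CPM in Gαq CD and Gαq ERTU. On this per length scale it exceeded 12.8% of the tested genes in WT CD and 75% in Gαq CD.

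The study asked what ertugliflozin does in hearts of each genotype. Rxfp1 was not chosen on a comparison of diets. These comparisons use the same libraries as the genotype difference it was chosen on, so they are not independent of the choice. In Gαq hearts the mean on ERTU was 79.6% of that on CD. The log2 fold change was -0.33 ± 0.25 (SE), with a 95% interval of the fold from 0.552 to 1.15, and it did not pass edgeR's quasi-likelihood test with Benjamini-Hochberg adjustment (adjusted p = 0.720). Of the 4 Gαq ERTU libraries 3 lay below every Gαq CD library, and library 17 lay above every one of them. Without library 17 the log2 fold change was -0.71 (edgeR adjusted p = 0.385), and without library 16 it was -0.19. An exact permutation test of log2 CPM (126 arrangements of the diet labels) gave a difference of -0.40 with a two-sided p of 0.214.

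In WT hearts the log2 fold change of Rxfp1 on ERTU was -0.18 ± 0.32 (SE), with an interval of the fold from 0.558 to 1.396 (edgeR's quasi-likelihood test with Benjamini-Hochberg adjustment, adjusted p = 1.00; exact permutation p = 0.492). Its sign rested on WT CD library 5, without which it was 0.01. With both genotypes in the fit, the diet term was -0.27 ± 0.19 (SE), an interval of the fold from 0.627 to 1.09 (edgeR adjusted p = 0.714). The difference between the genotypes in the effect of diet was -0.15 ± 0.41 (SE), with a 95% interval from -0.996 to 0.70 on the log2 scale (edgeR adjusted p = 1.00). The libraries could thus not resolve an effect of ertugliflozin on Rxfp1, and the intervals leave room for a fall to 0.552 of the CD level in Gαq hearts. Few genes responded to diet at this threshold, with 0% called by diet, in WT or for the interaction, and 0.00615% in Gαq, which was 1 gene, Themis2, named after its value was seen. DESeq2 called 2 genes by diet, 5 in Gαq and 0 in WT or for the interaction, voom called 0, 1, 0 and 0, and 1252 genes had an unadjusted p under 0.05 by diet, 365 in WT, 1240 in Gαq and 313 for the interaction.

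Gnaq varied more than Rxfp1 among the Gαq hearts, which allowed the levels of the 2 genes to be compared within the genotype. In Gαq CD, Gnaq was 6304, 9701, 8045, 11672 and 1641 CPM in libraries 6 to 10. In Gαq ERTU it was 2392, 5207, 2236 and 3031 CPM in libraries 16, 17, 18 and 20. The highest library exceeded the lowest 7.11-fold for Gnaq and 2.42-fold for Rxfp1 over the 9 libraries. Within Gαq CD these ratios were 7.11 and 1.78, but within Gαq ERTU they were alike, at 2.33 for Gnaq and 2.42 for Rxfp1. Library 10 had the lowest Gnaq of all 9 and also the lowest Rxfp1 of its group, library 9 was the highest of its group for both genes, and library 17 was the highest of Gαq ERTU for both. Rxfp1 and Gnaq did not keep the same order elsewhere, since library 6 was the second lowest of Gαq CD for Gnaq and the second highest for Rxfp1.

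Over the 9 Gαq libraries, log2 CPM of Rxfp1 and of Gnaq had a Pearson r of 0.740 (exact permutation p = 0.0287, adjusted p = 0.0861 over 6 relations) and a Spearman rho of 0.633 (exact permutation p = 0.0760, adjusted p = 0.228). Neither passed after adjustment, and the relation was chosen with earlier results of these data known. Without libraries 10 and 18, the 2 farthest from the median of Gnaq, r was 0.787 (exact permutation p = 0.0415). Gnaq averaged 1.04 log2 units higher on CD than on ERTU in these libraries, so r over both diets includes this step. The step was not called by edgeR, DESeq2 or voom, and library 10, on CD, had the lowest Gnaq. With the diet means removed, r was 0.663 (exact permutation p = 0.0167 over pairings within diets). The groups hold 5 and 4 libraries, too few for r within each diet. Without library 9 the value was 0.658 and without library 16 it was 0.701 (exact permutation p = 0.0804 and 0.0573). The slope was 0.344 log2 units of Rxfp1 per log2 unit of Gnaq, so a doubling of Gnaq went with much less than a doubling of Rxfp1.

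**Figure D2:**
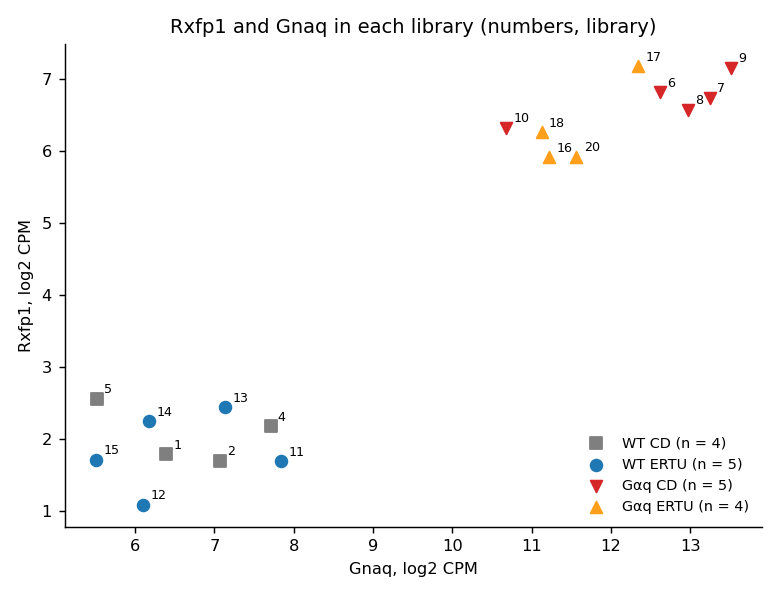
Log2 CPM of Rxfp1 against log2 CPM of Gnaq in the 18 libraries, which carry their library numbers and the marker of their group. The 9 WT libraries and the 9 Gαq libraries form separate clusters, and within the Gαq cluster libraries 9 and 17 are the highest for Rxfp1 and library 10 is the lowest for Gnaq.

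The other genes of the Gαq heart that were compared in the same way were the natriuretic peptide genes Nppa and Nppb, the slow myosin gene Myh7, the skeletal actin gene Acta1 and the atrial light chain gene Myl7. Acta1 had an r of 0.781 with Rxfp1 (exact permutation p = 0.0133, adjusted p = 0.0796) and a rho of 0.767 (exact permutation p = 0.0214, adjusted p = 0.128). Without libraries 6 and 16, the farthest from its median, r was 0.712 (exact permutation p = 0.0740), and with the diet means removed it was 0.741 (exact permutation p = 0.0806), so this relation was no longer past 0.05 in either case. Acta1 was 2220, 1392, 1476, 2146 and 1865 CPM in Gαq CD libraries 6 to 10 and 687, 1650, 1018 and 1053 CPM in Gαq ERTU libraries 16, 17, 18 and 20. Nppa had an r of -0.280 with Rxfp1 (exact permutation p = 0.467), Nppb of 0.0025 (exact permutation p = 0.995) and Myh7 of 0.334 (exact permutation p = 0.381). Spearman's rho for these 3 genes was -0.183, 0.1 and 0.05, and r without the 2 farthest libraries was -0.0977, -0.241 and 0.172 (exact permutation p = 0.848, 0.602 and 0.749). For these 3 genes no relation to Rxfp1 within the Gαq hearts was detected with 9 libraries.

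RXFP1 is known for its action on atrial muscle, so the level of Rxfp1 was set beside that of the atrial marker Myl7. The library with the highest Myl7 of each group was WT CD library 5 (78.2 CPM, with Rxfp1 at 5.78 CPM), WT ERTU library 14 (78.5 CPM, with Rxfp1 at 4.61 CPM), Gαq CD library 8 (138 CPM, with Rxfp1 at 95.0 CPM) and Gαq ERTU library 20 (92.5 CPM, with Rxfp1 at 60.4 CPM). Gαq CD library 6 had no Myl7 read (0 CPM) and 113 CPM of Rxfp1, the second highest of its group. Over the 9 Gαq libraries, r between Rxfp1 and Myl7 was -0.217 (exact permutation p = 0.573) and rho was -0.2 (exact permutation p = 0.613), and without libraries 6 and 7 r was 0.0539 (exact permutation p = 0.905). The order in WT ERTU was nearly shared, from low to high 12, 11, 15, 13, 14 by Myl7 and 12, 11, 15, 14, 13 by Rxfp1. In WT CD it was 4, 2, 1, 5 by Myl7 and 2, 1, 4, 5 by Rxfp1. The relation within WT libraries was not tested. Without the highest Myl7 library of each group, a choice made after seeing the data, the log2 fold change of Rxfp1 by Gαq was 4.92 on CD and 4.77 on ERTU. Other libraries with Myl7 reads remained in that fit, and the part of atrial tissue in the level of Rxfp1 was not tested.

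**Figure D3:**
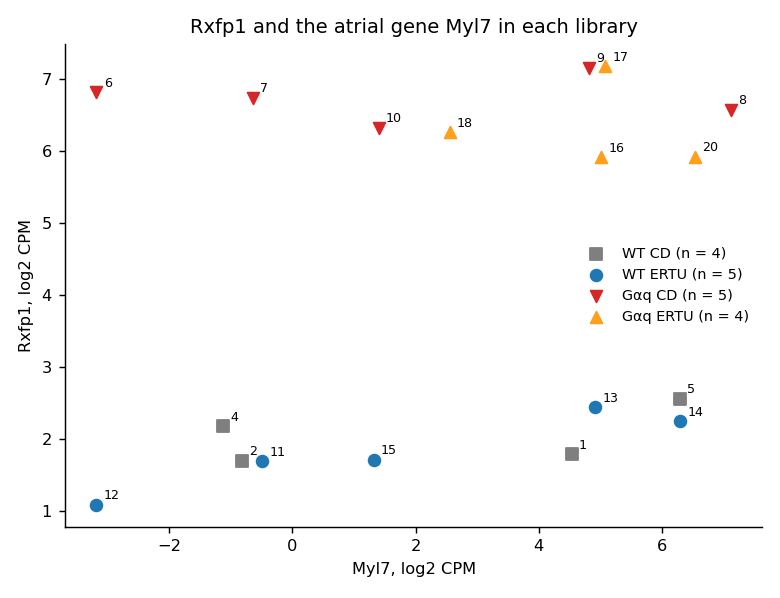
Log2 CPM of Rxfp1 against log2 CPM of the atrial gene Myl7 in the 18 libraries, with their library numbers and group markers. The 9 Gαq libraries stay between 60.0 and 145 CPM of Rxfp1 across the whole range of Myl7, including library 6 with 0 reads of Myl7.

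Genes of other cell types also moved with genotype. Of 6 fibroblast markers, 4 rose by genotype, beside 9.72% of all genes. The sum of the 6 ran from 1173 to 2436 CPM in the WT libraries and from 2026 to 3217 CPM in the Gαq libraries. The genotypes overlapped only through WT CD library 5 (2153 CPM) and WT ERTU library 14 (2436 CPM). Of 6 ventricular markers 3 were lower in Gαq, of 5 endothelial markers 2 were lower, and of 6 tested atrial markers 1 was lower, the potassium channel gene Kcnj3, beside 9.92% of all genes. The other 5 tested atrial markers had log2 fold changes above 0 that edgeR did not call, and the median of the 6 was 0.90. No smooth muscle (4), macrophage (5) or fat (3) marker passed edgeR's test by genotype, 1 macrophage marker did with voom, DESeq2 called 0, and 1 of the 12 had an unadjusted p under 0.05. The part of these cell types in the level of Rxfp1 was not tested.

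Of the 5 relaxin family ligands, 2 were detected in every library at low levels and 3 had almost no reads. Rln1, which encodes the main ligand of RXFP1 in the mouse, had 1 read pair in all 18 libraries together. Rln3 had 5 and Insl5, the ligand of RXFP4, had 3. Insl3, the ligand of RXFP2, was measured at between 0.896 and 1.06 CPM in the group means, with a log2 fold change by genotype of -0.04 ± 0.19 (SE, edgeR adjusted p = 0.912). Insl6, a family member of unassigned receptor, had a log2 fold change of 0.55 ± 0.34 (SE). It passed the filter on low counts through the Gαq libraries, of which 6 reached 0.549 CPM against 1 WT library, so this is described without a test. Of the 2 ligands that passed the filter, 0 were called by genotype or by diet by edgeR, DESeq2 or voom, and 0 had an unadjusted p under 0.05. For Insl6 by genotype this is not taken as a test.

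The other 3 relaxin family receptors had too few reads to be tested. Rxfp2, the nearest relative of Rxfp1, had 33 read pairs in all, of which 0 fell in the 5 Gαq CD libraries, a count that allows up to 0.0318 CPM. Its mean was 0.145 CPM in WT CD, 0.225 CPM in WT ERTU and 0.0609 CPM in Gαq ERTU. Rxfp3 had 84 read pairs, 26 of them in Gαq CD library 8, and Rxfp4 had 14. Rxfp1 was thus the one receptor of the family with more than a trace of mRNA in these ventricles. Limits of this kind cover counting error alone.

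RXFP1 shares its leucine-rich repeat fold with the receptors of R-spondins and of glycoprotein hormones. Lgr4, an R-spondin receptor, was the most abundant of these and did not pass by genotype (log2 fold change -0.19 ± 0.10, edgeR adjusted p = 0.175). Lgr6 rose by genotype by 0.39 ± 0.10 on the log2 scale (edgeR adjusted p = 0.0111), from 8.85 ± 2.17 CPM in WT CD (SD, n = 4) to 11.05 ± 1.63 CPM in Gαq CD (SD, n = 5). It was not called on CD (edgeR adjusted p = 0.231) or on ERTU (edgeR adjusted p = 0.0665) alone. On ERTU, DESeq2 and voom each called 1 of the 3 tested receptors of this list, where edgeR called 0. Lgr5 had a log2 fold change of 0.21 ± 0.32 (SE). It lay near the filter on low counts and passed it mostly through Gαq libraries, so it is described without a test. Fshr was at 0 in every library, which allows up to 0.0092 CPM over all of them, and Lhcgr and Tshr had 79 and 44 read pairs in all and were not tested. Per kilobase of exon, Lgr4 stood at 4.91 CPM in WT CD against 0.414 CPM for Rxfp1, and at 4.75 CPM in Gαq CD against 10.7 CPM. Rxfp1 was therefore below Lgr4 in wild type hearts and above it in Gαq hearts.

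Of 33 genes of RXFP1 signalling, a list of G protein subunits, adenylyl cyclases, kinases and nitric oxide pathway genes, 32 were tested. By genotype 8 rose and 1 fell, beside 19.6% of all genes, and their median log2 fold change was -0.02, close to that of all genes (0.0038). On CD 6 rose and 0 fell, beside 4% and 4.1% of all genes, and on ERTU 2 rose and 1 fell, beside 3.93% and 4.24%. Gnao1, the Go subunit to which RXFP1 can couple, rose by 0.84 ± 0.11 on the log2 scale (SE, edgeR adjusted p = 1.73e-05), from 37.7 ± 9.92 CPM in WT CD (SD, n = 4) to 65.8 ± 3.58 CPM in Gαq CD (SD, n = 5). Gnas, which encodes the Gs subunit, did not pass (log2 fold change 0.01 ± 0.06, edgeR adjusted p = 0.929), and neither did the 3 tested Gi genes. Among adenylyl cyclases, Adcy7 rose by 0.67 ± 0.14 and Adcy5, a main cardiac isoform, by 0.44 ± 0.10 (log2, SE, edgeR adjusted p = 0.00196 and 0.00404). Prkg1, the cyclic GMP-dependent kinase, rose by 0.65 ± 0.11 (edgeR adjusted p = 0.000214), Prkar1a, a regulatory subunit of protein kinase A, by 0.56 ± 0.14 (adjusted p = 0.00705) and the arrestin gene Arrb2 by 0.29 ± 0.08 (adjusted p = 0.0129). Pik3cg, a phosphoinositide 3-kinase gene, rose by 0.37 ± 0.12 (edgeR adjusted p = 0.0341). The call on Pik3cg was lost in 8 of 18 fits that each left out 1 library.

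Nos1, the neuronal nitric oxide synthase, had a log2 fold change of 2.46 ± 0.55 (SE) at low levels. It passed the filter on low counts through the Gαq libraries, of which 5 reached 0.549 CPM while 0 WT libraries did, so it is described without a test. It is still 1 of the 8 counted above by genotype and 1 of the 6 on CD. It was 0.461, 0.0570, 0.347 and 0.126 CPM in WT CD libraries 1, 2, 4 and 5, and from 0.0549 to 0.451 CPM in WT ERTU with a median of 0.105 CPM. In Gαq CD libraries 6 to 10 it was 1.48, 4.36, 2.01, 2.80 and 0.328 CPM, and in Gαq ERTU it was 0.183, 1.39, 0.339 and 0.368 CPM in libraries 16, 17, 18 and 20. Of the 5 Gαq CD libraries 4 lay above all WT libraries, as did library 17, while the other Gαq libraries lay within the WT range. Library 10, the Gαq CD library with the least Gnaq, was also the lowest for Nos1. The synthase genes Nos2 and Nos3 did not pass.

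Of 19 genes that relaxin is known to act on in fibrosis and vessels, 7 rose by genotype and 0 fell, and their median log2 fold change was 0.20. Among all genes 9.72% rose and 9.92% fell. Relaxin is known to reduce collagen deposition and to induce Mmp2, so the list mixes directions. Whether any of these rises is a response to relaxin was not tested. The list shares Col1a1 with the fibroblast markers, whose sums in each genotype are given above. Timp1, an inhibitor of matrix metalloproteinases, rose by 1.37 ± 0.30, the collagen genes Col1a1 and Col1a2 by 0.87 ± 0.19 and 0.72 ± 0.14, and the fibronectin gene Fn1 by 0.64 ± 0.18 (log2, SE, edgeR adjusted p = 0.00238, 0.00236, 0.000863 and 0.0154). Mmp2, a gelatinase, rose by 0.61 ± 0.11 and the TGF-β receptor gene Tgfbr1 by 0.33 ± 0.08 (edgeR adjusted p = 0.000344 and 0.00551). Col3a1 rose by 0.61 ± 0.20 (edgeR adjusted p = 0.0353), a call that was lost in 9 of 18 fits without 1 library. In separate diets 1 member rose on CD, beside 4% of all genes, and 3 rose on ERTU, beside 3.93%. DESeq2 called 4 and 4 and voom called 4 and 7.

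Other receptors that couple to Gs were listed to set the size of the Rxfp1 difference in context. Of 19 such genes 15 were tested, 1 rose and 1 fell by genotype, beside 9.72% and 9.92% of all genes, and their median log2 fold change was -0.11. Ptgir, the prostacyclin receptor, rose by 0.59 ± 0.12 (log2, SE, edgeR adjusted p = 0.00107). Crhr2, the urocortin receptor, fell by 0.87 ± 0.11 (log2, SE, edgeR adjusted p = 4.91e-06), from 29.1 ± 3.62 CPM in WT CD (SD, n = 4) to 14.99 ± 2.75 CPM in Gαq CD (SD, n = 5). The β-adrenergic receptor gene Adrb1 did not pass. No member of these 3 lists was called by diet, in WT, in Gαq or for the interaction by edgeR, DESeq2 or voom (0 each). By diet 5 of the 32 signalling genes, 5 of the 19 relaxin response genes and 2 of the 15 receptors had an unadjusted p under 0.05, and in Gαq hearts 5, 2 and 0 had.

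**Figure D4:**
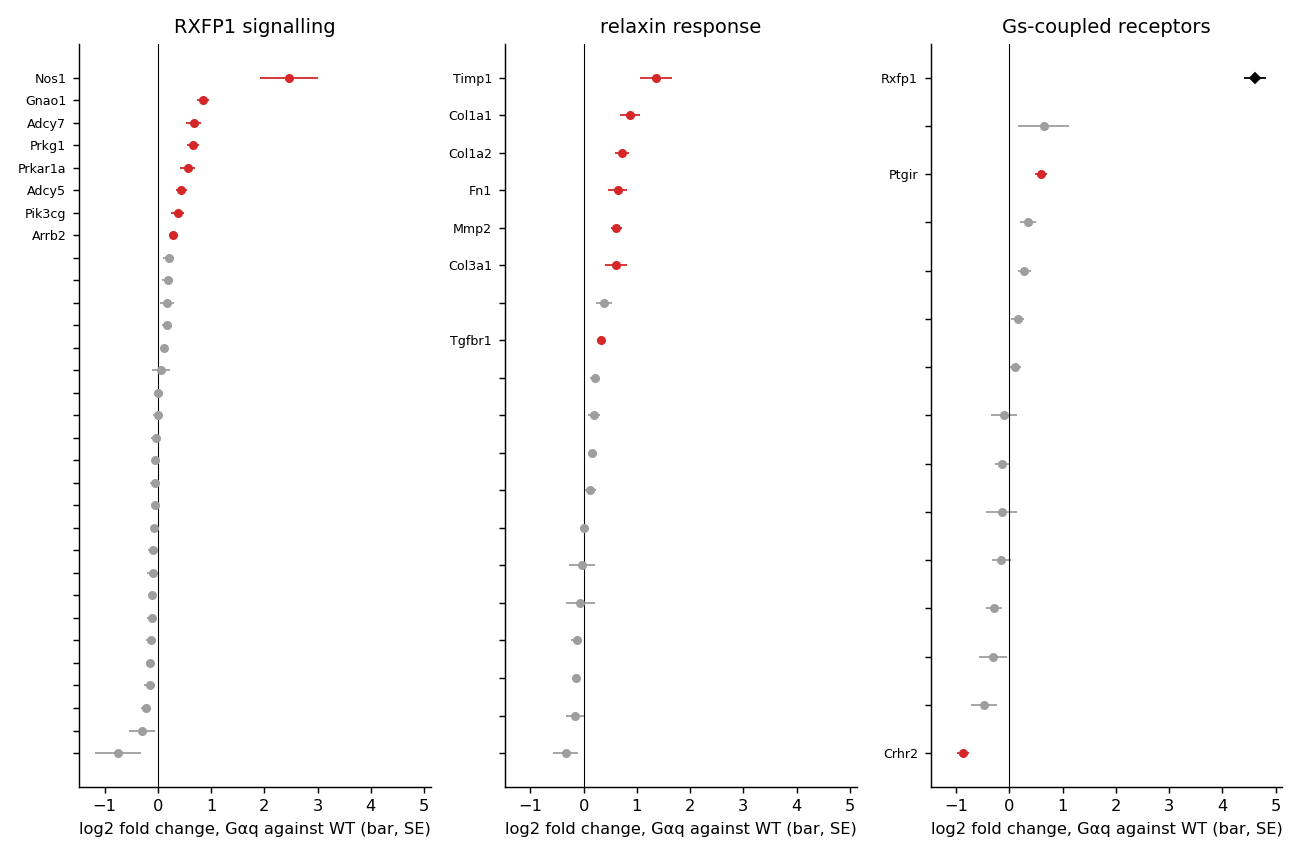
Log2 fold change of Gαq against WT, with diet in the model, for genes of RXFP1 signalling, relaxin response and Gs-coupled receptors. Points are estimates, bars are 1 SE, red and a name mark an adjusted p under 0.05 and the black diamond is Rxfp1, which stands at 4.62 while the other Gs-coupled receptors lie between -0.87 and 0.64. Nos1 passed the filter on low counts through the Gαq libraries, so its mark is not taken as a test.

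Genes beside Rxfp1 on chromosome 3 did not share its change as a group. Within 1 Mb of either end of Rxfp1, 34 other genes are annotated and 12 were tested, of which 2 rose and 2 fell, beside 9.72% and 9.92% of all genes, with a median log2 fold change of -0.02. Both that rose, Gm26984 and Gm36569, passed the filter on low counts through the Gαq libraries, so their values are given without a test. The filter asked for 0.549 CPM in 4 libraries, which 0 and 2 of the WT libraries reached for these genes and 8 and 7 of the Gαq libraries. The gene with the largest change was Gm26984, a single exon of 3510 bases at 79673367 to 79676876 that is annotated on the same strand within an intron of Rxfp1. Its exon shares 0 bases with the exons of Rxfp1. Its fitted log2 fold change was 5.46 ± 0.59 (SE), a value that depends on the prior count because WT CD held 0 reads (which allows up to 0.0436 CPM) and WT ERTU held 3. In Gαq CD libraries 6 to 10 it held 26, 38, 36, 28 and 13 read pairs, and in Gαq ERTU libraries 16, 17, 18 and 20 it held 2, 32, 13 and 20. Its total was 1.38% of that of Rxfp1 in Gαq CD, 1.07% in Gαq ERTU and 0.932% in WT ERTU. Whether its reads come from unspliced Rxfp1 RNA was not tested.

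Etfdh, which encodes the electron transfer flavoprotein dehydrogenase of fatty acid oxidation and lies at -12.1 kb (the gap between gene ends, negative towards lower coordinates), fell by 0.70 ± 0.09 (log2, SE, edgeR adjusted p = 6.04e-06), from 1004 ± 156 CPM in WT CD (SD, n = 4) to 598 ± 97.9 CPM in Gαq CD (SD, n = 5). Rapgef2, an exchange factor for Rap proteins at -355.1 kb, fell by 0.28 ± 0.08 (edgeR adjusted p = 0.0196). Gm36569, an antisense transcript at 121.4 kb on the other side, had a log2 fold change of 1.66 ± 0.39 (SE). Fam198b, which overlaps it on the opposite strand, had a log2 fold change of 0.59 ± 0.22 (edgeR adjusted p = 0.0648), and whether the authors' counting of pairs on the same strand keeps the reads of the 2 genes apart was not tested. The nearest coding genes on either side, 4930579G24Rik at -8.8 kb and Tmem144 at 74.7 kb, had log2 fold changes of -0.0034 ± 0.13 and -0.01 ± 0.13 (SE), and those of Ppid and Fnip2 were -0.0017 ± 0.07 and -0.08 ± 0.14. Gm9762, Gm10291 and 6430573P05Rik did not pass either, with log2 fold changes from -0.05 to -0.03. The 0.5 Mb and 2 Mb windows held 4 called of 10 tested and 5 of 14, beside 19.6% of all genes.

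**Figure D5:**
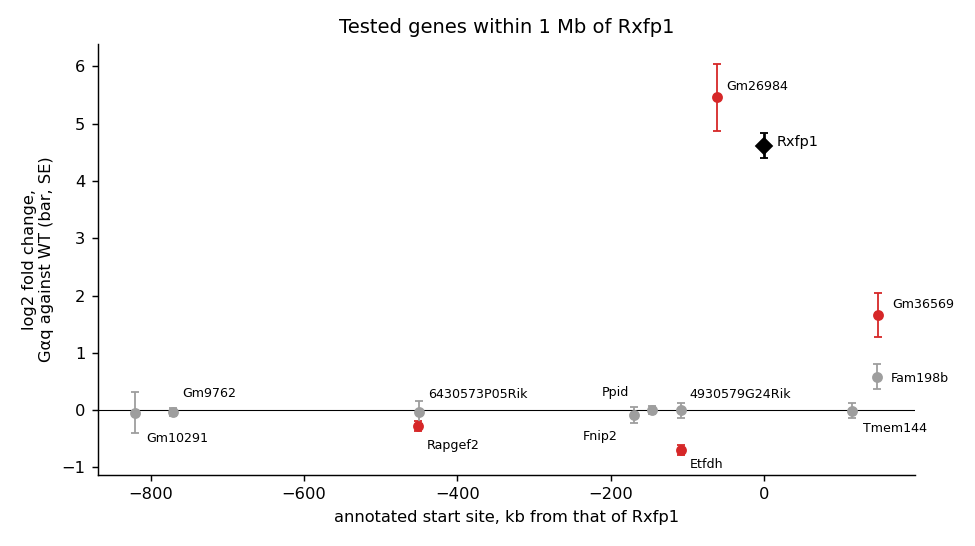
Log2 fold change of Gαq against WT for the 12 tested genes within 1 Mb of Rxfp1, placed by the distance of their annotated start site from that of Rxfp1 in kb. Bars are 1 SE, red marks an adjusted p under 0.05 and the black diamond is Rxfp1. Gm26984 and Gm36569 passed the filter on low counts through the Gαq libraries. Apart from them, the neighbours lie between -0.70 and 0.59.

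Among 13097 genes with a mean log2 CPM of at least 1, the pattern of Rxfp1 over all 18 libraries was most like that of Ube2ql1 (r = 0.977), Snap91 (0.973), Edn3 (0.969), Nppa (0.966) and Gm33609 (0.963). These values include the step between the genotypes, and 92 genes had an r of at least 0.9. Edn3, which encodes the vasoactive peptide endothelin 3, went from 0.681 ± 0.176 CPM in WT CD (SD, n = 4) and 0.781 ± 0.619 CPM in WT ERTU (SD, n = 5) to 10.5 ± 2.00 CPM in Gαq CD (SD, n = 5) and 7.87 ± 2.07 CPM in Gαq ERTU (SD, n = 4). Snap91, which encodes a clathrin assembly protein known from synapses, also followed Rxfp1 among the 9 Gαq libraries alone (r = 0.950). Over these 9 libraries 140 genes had an r of at least 0.9.

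Over the 9 Gαq libraries alone, where no step between genotypes enters, the highest r values were those of Klhdc7a (0.984), Clasp1 (0.983), Lynx1 (0.978), Npy4r (0.976) and Lrrc20 (0.967), and the lowest those of Trnau1ap (-0.978), Gm6204 (-0.971) and Hexa (-0.970). They are the extremes of 13097 values over 9 libraries and are given as a description. Only Npy4r, a receptor of pancreatic polypeptide, also rose by genotype among the first 5 (log2 fold change 2.82 ± 0.32, SE, edgeR adjusted p = 2.08e-06). Clasp1, which encodes a microtubule plus-end protein, was lower in Gαq (-0.47 ± 0.16, SE, edgeR adjusted p = 0.0444), and the other 3 did not pass. In the 9 WT libraries the r of Klhdc7a with Rxfp1 was 0.362 and that of Clasp1 was -0.433. By this measure Gnaq ranked 1064 among the 13097 genes.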

How the data were processed

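Rxfp1, its lists and its relations were chosen with earlier results of these data known. RNA of frozen left ventricle was sequenced as poly(A) libraries. The authors aligned reads to mm10 with STAR 2.6.0c and counted properly paired, unique alignments in nuclear-encoded genes by featureCounts (Subread 1.6.2), and the deposited counts are raw. A further deposited table gives values near a log2 scale, from the authors' variance-stabilizing step in DESeq2 (1.23.10 per the labels), used here only as an alternative. Symbols and positions came from GENCODE M21 (GRCm38, the same build), which matched 55190 of 55450 IDs (99.5%).

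Here edgeR 4.0.16 (R 4.3.3) kept 16270 genes by filterByExpr on the 4 groups, scaled libraries by TMM and ran quasi-likelihood F tests with Benjamini-Hochberg adjustment over all genes tested. Genotype and diet came from a model with both, and the other comparisons from 1 mean per group. Genes not tested held 0.0906% of the counts. Log2 CPM used a prior count of 2. Diets were also compared by two-sided exact permutation. Correlations used all 362880 pairings of 9 libraries. Limits for a count of 0 assume 3 counts. The step across all genes was tested on simulated data. The labels name no sequencing batch and tie no library to an animal, so p-values measure the spread between these samples, part of which may be technical.

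Named genes were Rxfp1 and Gnaq; the ligands, relaxin family receptors and leucine-rich repeat receptors with any count; up to 8 called members by genotype of the other lists, taken by smallest p; the genes most like Rxfp1; the tested neighbours; and the 6 genes of the relations. Alternatives were size factors and the Wald test of DESeq2 1.42.0, library totals, no filter, a mean CPM of 1, voom with quality weights (limma 3.58.1), only the groups compared, the deposited transformed values, other windows and fits without 1 library. Fits without the library highest in Myl7 of each group, and the alternatives of the Acta1 relation, were added after seeing the data. Some genes of the lists are counted and not reported here by name or in figures.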

Additional observations from a re-analysis of the deposited data

Results flagged for a closer look

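Levels in CPM of 20 genes and 7 marker sums were checked for a library far from the rest of its group, by the gap to the nearest library as a share of the range of the group. Of 107 groups of values, 18 had such a library, where a rate of 1 in 20 gives 5.3. The values overlap, since Myl7 is also part of the atrial sum and all come from the same libraries. Whether 18 exceeds chance was therefore not tested. The gap that counts as far is larger in groups of 4 than in groups of 5. For Rxfp1 the widest gap was that of Gαq ERTU library 17, at 0.806 of the range of its 4 libraries, just under the limit for that size, and Rxfp1 and Gnaq passed the limit in none of the 4 groups.

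Gαq CD library 8 stood apart in 8 of these. It was high for Myl7 (138 CPM against 0 to 28.0, a gap of 0.798 of the range), for the atrial sum (995 against 55.3 to 245, 0.798), for Nppb (1520 against 827 to 956, 0.814), and for the sums of fibroblast (3217 against 2026 to 2358, 0.721), smooth muscle (634 against 168 to 297, 0.724), macrophage (513 against 289 to 353, 0.717) and fat markers (33.5 against 1.06 to 8.46, 0.772). It was also low for Myh7 (4004 against 7839 to 8144, 0.926). Its Rxfp1, 95.0 CPM, lay within the range of its group.

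Gαq ERTU library 17, the highest for Rxfp1, was high for Nos1 (1.39 against 0.183 to 0.368, 0.846) and for the smooth muscle sum (623 against 240 to 300, 0.843). Gαq ERTU library 16 was high for Nppa (21090 against 14130 to 14910, 0.889), library 20 was high for the fat sum (81.5 against 11.6 to 16.7, 0.927), and Gαq CD library 10 was low for Gm26984 (0.609 against 1.598 to 1.84, 0.804). In WT ERTU, library 14 was high for Edn3 (1.84 against 0.193 to 0.660, 0.716) and for the fibroblast (2436 against 1173 to 1435, 0.792) and macrophage sums (375 against 254 to 286, 0.731). WT ERTU library 15 was low for Myh7 (1684 against 2366 to 2477, 0.860) and high for Npy4r (3.42 against 0.420 to 1.226, 0.731).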

How the results depend on the processing

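Under up to 9 other settings Rxfp1 stayed higher in Gαq and was not called by diet. The deposited transformed values, which compress low counts, gave 4.06 for Gαq on CD and 3.80 on ERTU (log2). ERTU in Gαq ran from -0.56 to -0.23 (adjusted p 0.217 to 0.889), ERTU in WT from -0.25 to -0.08, diet from -0.44 to -0.18 and the interaction from -0.30 to -0.15. The r with Gnaq ran from 0.663 to 0.793.

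Without 1 library at a time, Gαq on CD ran from 4.57 to 4.88, Gαq on ERTU from 4.16 to 4.72, diet from -0.48 to -0.19, ERTU in Gαq from -0.71 to -0.19, ERTU in WT from -0.36 to 0.01 (reversed, 0.014, without WT CD library 5) and the interaction from -0.53 to 0.03 (reversed, 0.0291, without WT ERTU library 13). The r with Gnaq ran from 0.658 to 0.816. No paired analysis was possible because no column number occurs in more than 1 group.

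Genes called by genotype numbered 2812 to 3458, Gαq on CD 788 (without WT CD library 1) to 1414 and Gαq on ERTU 946 (without Gαq ERTU library 18) to 1696, and 2755 with voom. The 1 gene called for ERTU in Gαq was lost in all 18 such fits. Among the genes named, calls lost without the highest Myl7 libraries were Arrb2, Pik3cg, Col3a1, Acta1 and Rapgef2. Rapgef2 was also lost with library totals and Pik3cg with no filter. In each case the cause was not tested.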
